A study of Mus musculus with 8 samples.

Results

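The epithelial-mesenchymal transition (EMT) factors examined here are 10 genes, found by their gene names among the 54532 genes of the deposited count table. They are the zinc-finger repressors Zeb1, Zeb2, Snai1 and Snai2, the basic helix-loop-helix factors Twist1 and Twist2, the homeobox factor Prrx1, the chromatin protein Hmga2, and the effectors Vim (vimentin) and Cdh2 (N-cadherin). All 10 were present once, and all 10 passed the filter on low counts. The samples were 8 libraries of whole orthotopic pancreatic tumours of C57BL/6 mice. The tumours were grown from implanted KPC cells, which derive from pancreatic ductal adenocarcinoma of the mouse. Whether each library is a separate tumour or animal is not stated in the labels. The 4 libraries TLQP21 1 to 4 came from mice treated for 2 weeks with TLQP21, a fragment of the secreted neuropeptide precursor VGF, and the 4 libraries Saline 1 to 4 from mice given saline for as long. No transgene, knockout or further agent separates the groups, and the labels give neither the sex nor the age of the mice. The series addresses which transcripts change where the peptide is reported to slow tumour growth.

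In EMT, epithelial cells lose cell-to-cell junctions and take on the shape and motility of mesenchymal cells. Zeb, Snail and Twist proteins bind E-box sequences, repress E-cadherin (Cdh1) and other junction genes, and are accompanied by a rise of vimentin and N-cadherin. In pancreatic cancer the programme is known for its ties to invasion and drug resistance, and it is often partial, with epithelial and mesenchymal genes present together. Several members are also made by cells other than carcinoma cells: fibroblasts use Prrx1, Twist1 and Vim, and macrophages use Zeb2 and Vim. Since whole tumours were sequenced, fewer cells of a type and less RNA per cell cannot be told apart.

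The promoter of Snai1 holds an E-box, the letters that Snail and Zeb proteins bind, and the promoter of Vim, the member with the highest level, holds a TATA sequence. Both are shown over the 250 bases before the start in RefSeq on GRCm38.p6, from chr2:167537945-167538194 and chr2:13574061-13574310 on the plus strand, with the E-box or the TATAAA in capitals. The deposited gene position of Vim starts earlier, at 13573927, so its window lies inside the gene as counted. The window of Snai1 ends right before its deposited start.
Snai1 promoter: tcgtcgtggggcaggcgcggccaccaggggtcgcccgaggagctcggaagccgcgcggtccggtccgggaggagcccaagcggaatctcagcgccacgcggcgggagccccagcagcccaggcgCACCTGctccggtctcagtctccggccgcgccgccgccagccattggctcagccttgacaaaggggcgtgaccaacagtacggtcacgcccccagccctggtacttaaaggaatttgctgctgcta
Vim promoter: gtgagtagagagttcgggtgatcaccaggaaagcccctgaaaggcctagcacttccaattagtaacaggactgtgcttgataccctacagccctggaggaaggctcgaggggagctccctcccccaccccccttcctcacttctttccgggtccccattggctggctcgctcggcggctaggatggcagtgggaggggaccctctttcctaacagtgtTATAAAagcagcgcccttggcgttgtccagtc
The E-box CAGGTG, read on both strands (CACCTG on the other), begins 126 bases before the Snai1 start. Of 32851 promoter windows of this length, 17.2% hold it. Among the 7 members whose promoters were matched by symbol, Snai1 alone does. TATAAA on the gene strand begins 32 bases before the Vim start and is found in 7.59% of the windows. Of the 7 members, Twist1 and Vim hold it. These are matches of letters and were not tested as binding sites.

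Zeb2 and Hmga2 are textbook targets of microRNAs that keep cells epithelial or differentiated, the miR-200 family for Zeb2 and let-7 for Hmga2. The mature sequences are from RefSeq (GRCm38.p6), with the seed, bases 2 to 8, in capitals, and are grouped by seed.
mmu-miR-200b-3p: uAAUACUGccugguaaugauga
mmu-miR-429-3p: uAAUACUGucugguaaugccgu
mmu-miR-200a-3p: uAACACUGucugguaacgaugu
mmu-let-7a-5p: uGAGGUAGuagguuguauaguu
In the longest annotated 3' untranslated region of Zeb2 (4941 bases, GENCODE M21), the match to the first seed, CAGTATT, occurs 5 times, and CAGTGTT, the match to the seed of miR-200a, 4 times. Of 1045 genes with regions within 20% of that length, 2 (0.191%) hold CAGTATT at least as often, and 15 (1.44%) CAGTGTT at least as often. The region of Hmga2 (3014 bases) holds the let-7 match CTACCTC 4 times, and 2 of 2244 genes of like length hold it at least as often. The first site after the stop codon for each seed lies on the minus strand of GRCm38, at chr2:44988173-44988194 (miR-200b), chr2:44988357-44988378 (miR-200a) and chr10:120364224-120364245 (let-7), with the seed match in capitals.
Zeb2, miR-200b site: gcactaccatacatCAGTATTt
Zeb2, miR-200a site: gcaaaaattttgtaCAGTGTTa
Hmga2, let-7 site: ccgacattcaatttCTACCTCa
Mature microRNAs were not measured in these libraries.

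The libraries held 29027480 to 33536087 counts in TLQP21 and 28358465 to 28963457 in Saline, so every member had at least 31 reads in every library. Libraries 1 and 2 of each group had 9960 to 10625 reads of Xist, which is transcribed from the inactive X, and libraries 3 and 4 had 2027 to 2247 reads of 4 Y-linked genes, a split that the labels do not mention and that is balanced between the treatments. Saline 2 carried transcripts of hepatocytes (5096 CPM summed over 10 markers, against 33.0 to 69.0 in the TLQP21 libraries and 41.1 to 64.1 in the other Saline libraries), and Saline 4 had the highest acinar level. CPM are counts scaled to equal library totals after trimmed-mean (TMM) scaling. The epithelial keratins Krt8 and Krt19, which ductal carcinoma cells carry, averaged 2363 and 1744 TPM, which are counts per gene length scaled to a common total. Transcripts of epithelial keratins were therefore abundant in these libraries. The acinar enzyme gene Ctrb1 averaged 24886 TPM, so other pancreatic epithelium was present too. These keratins alone do not separate cancer cells from it.

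By level per length, Vim stood far above the other members. It averaged 1067 ± 207 TPM over the 8 libraries, higher than 99.4% of the genes tested. Hmga2, a chromatin architecture protein of embryonic and tumour cells, followed at 58.4 ± 12.8 TPM, and its range did not overlap that of Vim or of the next member. Twist1 averaged 23.4 ± 2.74 TPM and Snai1 18.5 ± 4.91 TPM, with overlapping ranges and Twist1 higher in 6 of 8 libraries. Snai1 was in turn higher than Zeb1 in 7 of 8 libraries.

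Zeb1, Zeb2, Cdh2 and Prrx1 lay together, at 12.9 ± 3.09, 11.5 ± 1.12, 11.1 ± 3.12 and 10.3 ± 1.97 TPM. Their order does not exceed their spread: each was above the next in only 4 or 5 of the 8 libraries. Snai2 was at 4.52 ± 0.702 TPM and Twist2 at 1.318 ± 0.313 TPM, each below the member before it in all 8 libraries. Within both the Snail and the Twist pair, 1 gene thus lay well above the other: Snai1 above Snai2 and Twist1 above Twist2.

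**Figure D1:**
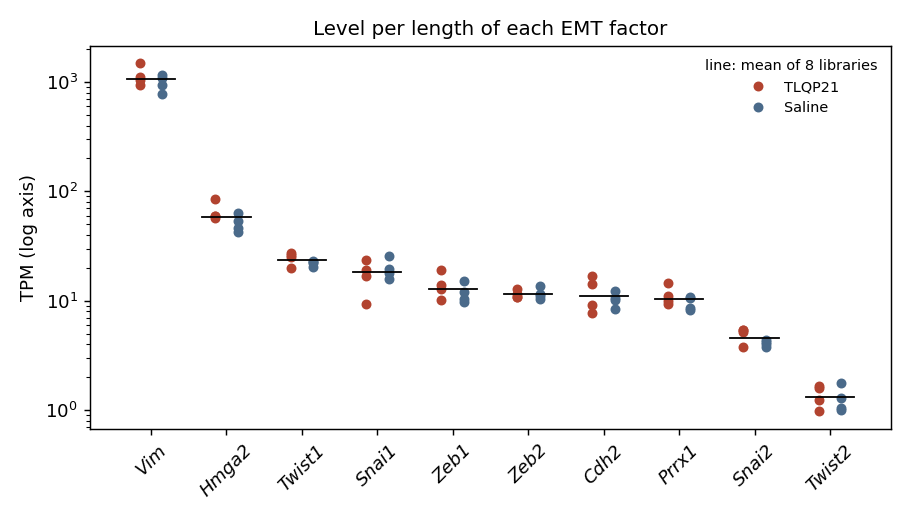
Level of each EMT factor in TPM (log axis) in the 4 TLQP21 and 4 Saline libraries; each point is a library and the line is the mean of 8. Vim averages 1067 TPM and Twist2 1.318 TPM, and Zeb1, Zeb2, Cdh2 and Prrx1 share one range.

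Between TLQP21 and Saline tumours, the EMT factors were not distinguishable at this number of libraries. None of the 10 members passed an adjusted p of 0.05 in edgeR's quasi-likelihood test, against 0% of the 18238 genes tested, and none had an unadjusted p under 0.05, against 3.06% of all genes. DESeq2 called 0 members, with 0 at an unadjusted p under 0.05, which 745 of 20780 genes had. The voom fit of limma with sample weights called 0, with 1 (Zeb2) at an unadjusted p under 0.05, which 1932 of 18238 genes had. The ranges of the groups overlapped for all 10 members, while 1.66% of all genes had ranges that did not overlap. Of the members, 7 had log2 fold changes above 0 (50.6% of all genes did) and 3 below (49.4% of all genes), with a median of 0.12 against 0.00 over all genes. The 95% intervals of all 10 lay within 2-fold in both directions, as did those of 79.6% of all genes. In edgeR the smallest adjusted p of the members was 0.99988.

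The Zeb factors, which repress E-cadherin through paired zinc-finger clusters, showed no common direction. Zeb1 (ENSMUSG00000024238, chromosome 18 from 5591860 to 5775467 on GRCm38) was at 36.7, 42.2, 47.9 and 60.6 CPM in TLQP21 1 to 4, against 40.4, 35.8, 49.2 and 41.4 CPM in Saline 1 to 4. TLQP21 4 was the highest library, and the other 3 TLQP21 values lay within the Saline range. The log2 fold change was 0.17 (SE 0.16, 95% interval -0.19 to 0.52), and without TLQP21 4 it was 0.015. Zeb2 (ENSMUSG00000026872, chromosome 2 from 44983632 to 45117395) was at 81.0, 68.5, 71.3 and 78.5 CPM in TLQP21, against 88.6, 82.6, 69.7 and 79.7 CPM in Saline. It varied least of all members, with a coefficient of variation of 9.09% over the 8 libraries, and its fold change was -0.10 (SE 0.10, interval -0.31 to 0.12). The lower end of this interval is a ratio of 0.804.

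The Snail factors are fast-turning repressors of Cdh1, with Snai1 seen early in EMT in many models. Snai1 (ENSMUSG00000042821, chromosome 2 from 167538195 to 167542814), whose promoter E-box is shown above, was at 13.2, 8.81, 10.3 and 4.69 CPM in TLQP21, against 9.50, 11.3, 8.10 and 16.0 CPM in Saline. It varied most of all members, with a coefficient of variation of 33.2%. The highest value, in Saline 4, and the lowest, in TLQP21 4, both came from libraries with Y-linked transcripts. The fold change was -0.28 (SE 0.31, interval -0.98 to 0.42), -0.07 without Saline 4 and -0.06 without TLQP21 4. Within the libraries with Xist the log2 ratio was 0.08, and within those with Y-linked transcripts -0.68. Snai2 (ENSMUSG00000022676, chromosome 16 from 14705852 to 14709385), also called Slug, was at 3.80, 2.42, 3.52 and 3.37 CPM in TLQP21, against 2.65, 3.15, 2.44 and 3.29 CPM in Saline. Of the TLQP21 values, 3 lay above all Saline values and the other was the lowest of the 8 (0.18, SE 0.21, interval -0.29 to 0.65).

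The Twist factors drive mesoderm and neural crest development. Twist1 (ENSMUSG00000035799, chromosome 12 from 33957671 to 33959829) was at 11.3, 13.2, 14.9 and 13.3 CPM in TLQP21, against 12.05, 13.4, 11.5 and 12.7 CPM in Saline. The Saline range lay within the TLQP21 range, and the fold change was 0.08 (SE 0.13, interval -0.20 to 0.37). Twist2 (ENSMUSG00000007805, chromosome 1 from 91801461 to 91848028), the least abundant member, had 31 to 56 reads in TLQP21 and 31 to 57 in Saline. Its values were 1.37, 1.61, 1.03 and 1.64 CPM in TLQP21, against 1.33, 1.12, 1.06 and 2.16 CPM in Saline, with Saline 4 the highest. The fold change was 0.00 in size (SE 0.29), with an interval of -0.66 to 0.66, which reaches a ratio of 1.58 at its upper end. An antisense gene that overlaps Twist2, Gm29100, averaged 19.9 reads against 42.4 for Twist2. Without a stated strand setting, reads of the 2 genes may not be separated.

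Prrx1 and Hmga2 are regulators outside these families. Prrx1 (ENSMUSG00000026586, chromosome 1 from 163245119 to 163313710), a homeobox factor of mesenchyme and of activated fibroblasts, was at 43.0, 34.9, 34.2 and 49.7 CPM in TLQP21, against 38.8, 32.3, 30.2 and 44.9 CPM in Saline. Library 4 was the highest and library 3 the lowest in both groups. The fold change was 0.15 (SE 0.16, interval -0.22 to 0.51), and leaving out single libraries gave 0.031 (without TLQP21 4) to 0.26 (without Saline 4). Hmga2 (ENSMUSG00000056758, chromosome 10 from 120361275 to 120476469), whose transcript carries the let-7 matches shown above, was at 141, 124, 134 and 178 CPM in TLQP21, against 141, 130.4, 91.2 and 121 CPM in Saline. TLQP21 4 stood highest and Saline 3 lowest, and the other 6 values shared one range. It had the smallest unadjusted p of the members in edgeR (0.129, rank 1683 of 18238 genes), with a fold change of 0.25 (SE 0.15, interval -0.09 to 0.60). The value was 0.13 without TLQP21 4 and 0.14 without Saline 3.

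For the effectors, too, the groups overlapped. Vim (ENSMUSG00000026728, chromosome 2 from 13573927 to 13582826), the intermediate filament of mesenchymal cells and leukocytes, was at 1545, 1594, 1747 and 2183 CPM in TLQP21, against 1463, 1309, 1640.4 and 2116 CPM in Saline. Library 4 was the highest in both groups, and the fold change was 0.12 (SE 0.17, interval -0.27 to 0.50). Cdh2 (ENSMUSG00000024304, chromosome 18 from 16588877 to 16809246), the cadherin of neural and mesenchymal cells, was at 21.7, 23.5, 38.2 and 42.2 CPM in TLQP21, against 26.5, 24.0, 31.2 and 33.2 CPM in Saline. In both groups libraries 3 and 4 were above libraries 1 and 2, and the fold change was 0.13 (SE 0.22, interval -0.37 to 0.62). Without TLQP21 4 the direction turned for Vim (-0.0073) and Cdh2 (-0.056).

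**Figure D2:**
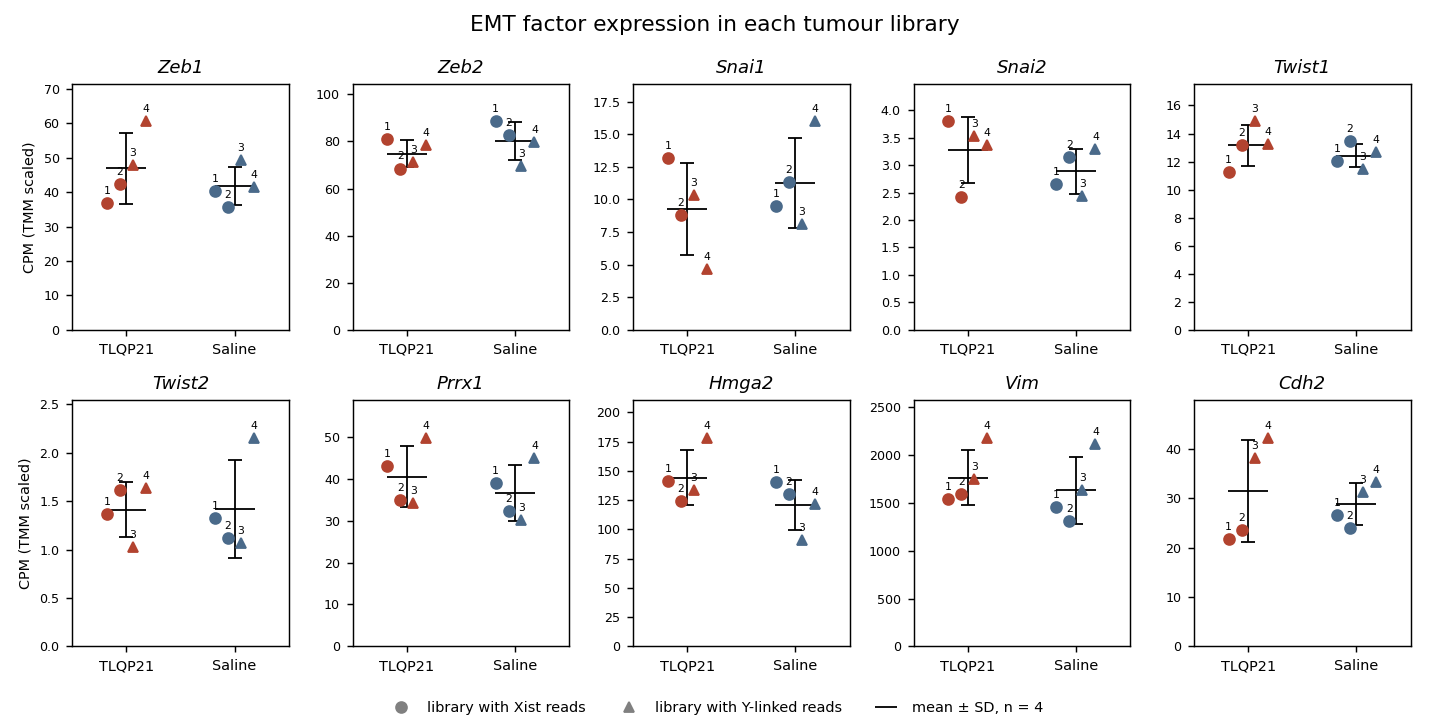
CPM of each EMT factor in every library, TLQP21 at left and Saline at right in each panel; numbers are replicates, circles are libraries with Xist reads, triangles libraries with Y-linked reads, and bars the mean ± SD of 4. The groups overlap for all 10 genes, and for Vim and Cdh2 the triangles lie above the circles.

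**Figure D3:**
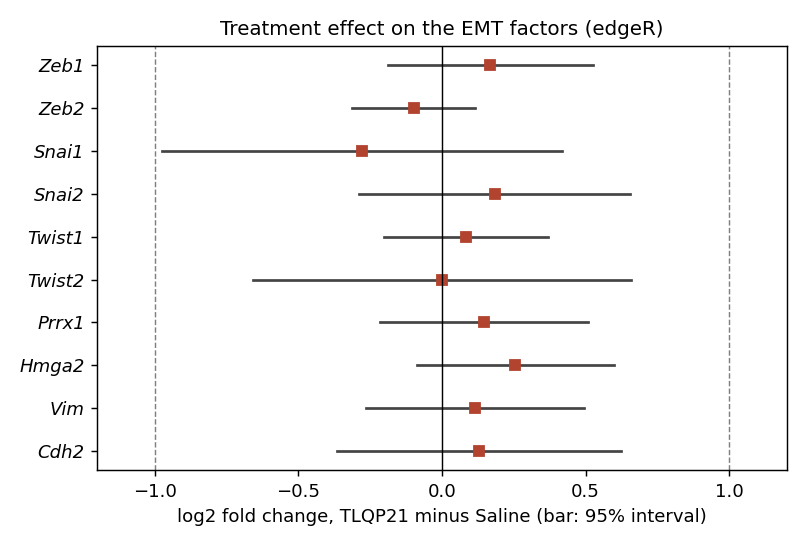
Log2 fold change of each EMT factor, TLQP21 minus Saline, from edgeR; squares are estimates, bars 95% intervals, and dashed lines mark 2-fold. All 10 intervals cross 0 and stay within 2-fold, and Snai1 has the widest, from -0.98 to 0.42.

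Vim and Cdh2 had separate ranges in the kinds of library set apart by sex-linked transcripts, while their ranges overlapped between the treatments. The kinds coincide with libraries 1 and 2 against libraries 3 and 4 of each group, so anything else tied to those numbers cannot be told apart from them. Cdh2 was at 31.2 to 42.2 CPM in the 4 libraries with Y-linked transcripts and at 21.7 to 26.5 CPM in the 4 with Xist. Vim was at 1640.4 to 2183 CPM in libraries with Y-linked transcripts and at 1309 to 1594 CPM in those with Xist. They were the 2 members whose ranges did not overlap between the kinds of library, a separation seen in 9.35% of all genes. In a comparison added after seeing the data, with treatment as a covariate, edgeR gave Cdh2 a log2 difference of 0.59 (Y-linked minus Xist, SE 0.12, adjusted p = 0.0988) and Vim 0.38 (SE 0.12, adjusted p = 0.245), so neither passed, while 0.373% of all genes did. DESeq2 called Cdh2 alone among the members (0.59, adjusted p = 0.00212) and not Vim (adjusted p = 0.0945). The share of all genes that DESeq2 called between the kinds is not given here, so its Cdh2 call has no background beside it. Zeb1 differed by 0.36 (SE 0.11, edgeR adjusted p = 0.245), at 41.4 to 60.6 CPM in libraries with Y-linked transcripts and 35.8 to 42.2 CPM in those with Xist. In edgeR 3 members, Cdh2, Vim and Zeb1, had an unadjusted p under 0.05 between the kinds, which 13.6% of all genes had. The other 7 members had unadjusted p of at least 0.326 in edgeR.

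Marker levels are given by kind of library as a description, with overlapping ranges and no gene passing in these lists. Summed over 12 markers, T and NK cell genes were at 85.8 to 125 CPM with Y-linked transcripts and 107 to 136 CPM with Xist, and 1 of 12 had a log2 difference above 0. Macrophage markers were at 2576 to 3946 and 3122 to 4192 CPM (3 of 12 above 0), and fibroblast markers at 5854 to 11757 and 6025 to 8658 CPM (5 of 12 above 0), in the same order of kinds. Other marker lists also lay to one side, with 12 of 12 acinar, 0 of 8 islet and 0 of 7 tested hepatocyte markers above 0. The hepatocyte sum was high in Saline 2 alone (5096 CPM), against 57.6 to 64.1 CPM in the other libraries with Xist. The acinar sum was 48156 CPM in Saline 4. In the other libraries with Y-linked transcripts it was 9366 to 20259 CPM, and with Xist 9754 to 26459.6 CPM. The share of all genes above 0 between the kinds is not given here. The part of any of these cell types in the Cdh2 and Vim values was not tested. Within the libraries with Y-linked transcripts and within those with Xist, the TLQP21 to Saline log2 ratio was 0.32 and -0.16 for Cdh2, 0.07 and 0.18 for Vim, and 0.26 and 0.05 for Zeb1. For Hmga2 it was 0.55 and -0.03.

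No gene in the lists of EMT targets and regulators passed the treatment test. E-cadherin (Cdh1), their main repressed target, averaged 351.5 ± 48.6 TPM in TLQP21 and 314 ± 22.2 TPM in Saline (log2 fold change in CPM 0.09, SE 0.09). The ratio of Cdh1 to Cdh2 in TPM was 31.5 ± 8.35 in TLQP21 and 30.9 ± 4.41 in Saline, with ranges of 24.0 to 39.0 and 27.1 to 36.3. In TPM the epithelial cadherin thus exceeded N-cadherin at least 24.0-fold in every library. The size of this ratio depends on the deposited gene lengths, 4574 bases for Cdh1 and 8066 for Cdh2. Of 20 epithelial genes repressed in EMT, all were tested and none passed in edgeR, with 11 above 0 and a median of 0.02. The ductal keratin Krt19 was at 1148 ± 128 CPM in TLQP21 and 1021 ± 58.2 CPM in Saline (0.17, SE 0.11), the keratin Krt8 had 0.10 (SE 0.09) and the desmosome gene Dsp 0.13 (SE 0.12).

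Of 20 mesenchymal genes induced in EMT, none passed, with 12 above 0 and a median of 0.02. Fibronectin (Fn1), the most abundant of them at 898 TPM, was at 3626 ± 417 CPM in TLQP21 and 3424 ± 538 CPM in Saline (0.08, SE 0.14). The gelatinase Mmp9, also made by neutrophils, was at 40.5 ± 12.3 CPM in TLQP21 and 64.3 ± 29.2 CPM in Saline (-0.67, SE 0.29). Its log2 ratio was -1.27 within the libraries with Y-linked transcripts and -0.07 within those with Xist. It was the only one of these 20 with an unadjusted p under 0.05 (0.0472 in edgeR). Its ranges overlapped, at 31.7 to 58.1 CPM in TLQP21 and 46.2 to 108 CPM in Saline, and an exact permutation test of its CPM gave p = 0.143. Neutrophil markers lay in the same direction, with summed levels of 329 to 664 CPM in TLQP21 and 526 to 1468 CPM in Saline. The highest of these was Saline 4, and the other Saline libraries were at 526 to 808 CPM. Of the neutrophil markers, 12 of 12 lay below 0, 8 with an unadjusted p under 0.05 in edgeR, and none passed. Their part in the Mmp9 value was not tested. The matrix crosslinking enzyme Loxl2 had 0.22 (SE 0.13) and the integrin Itgb1 0.15 (SE 0.11).

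Among regulators the medians also lay near that of all genes. Of 13 tested regulators that hold the epithelial state, 10 lay below 0 with a median of -0.08. Elf3, an epithelial ETS factor, was at 223 ± 41.1 CPM in TLQP21 and 278 ± 46.8 CPM in Saline (-0.32, SE 0.16), Klf5 at -0.13 (SE 0.10) and Ehf at 0.13 (SE 0.16). Of 24 ligands, receptors and transducers that induce EMT, 13 lay above 0 with a median of 0.01. The hypoxia factor Hif1a had -0.29 (SE 0.19), the Notch ligand Jag1 0.11 (SE 0.09) and Tgfb1, the classical inducer of EMT, -0.16 (SE 0.15), at 109 ± 16.2 CPM in TLQP21 and 122 ± 21.2 CPM in Saline. Of 19 partners and cofactors, 10 lay above 0 with a median of 0.01, among them the deacetylases Hdac1 (0.12, SE 0.08) and Hdac2 (0.15, SE 0.11), while Id1, an inhibitor of helix-loop-helix factors, had -0.18 (SE 0.12). Of 15 tested other transcription factors tied to EMT, 6 lay above 0 with a median of -0.06. These included Tbx3 (-0.60, SE 0.29), Tcf21 (-0.52, SE 0.38) and Sox4 (-0.21, SE 0.24). None of the genes in these 4 lists had an adjusted p under 0.05 in edgeR, and none an unadjusted p under 0.05.

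**Figure D4:**
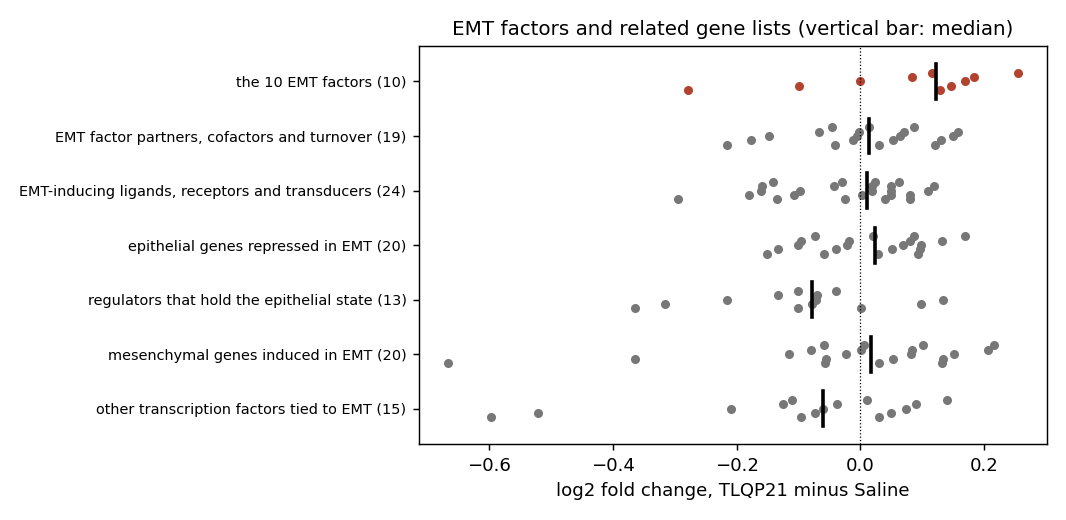
Log2 fold change, TLQP21 minus Saline, of the 10 EMT factors and of every tested gene in 6 related lists (number of genes in brackets); each point is a gene and the bar is the list's median. Medians run from -0.08 for the regulators of the epithelial state to 0.12 for the EMT factors, and Mmp9 at -0.67 lies farthest from 0.

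Levels of cell type markers that could carry these transcripts were compared between the groups as a description. Fibroblast markers summed to 6259 to 8658 CPM in TLQP21 and 5854 to 11757 CPM in Saline (6 of 12 above 0), led by the collagen Col3a1 at 808 TPM. Pericyte and smooth muscle markers summed to 426 to 502 CPM in TLQP21 and 353 to 452 CPM in Saline, with 10 of 10 above 0 and a median of 0.17. Macrophage markers summed to 2576 to 4192 CPM in TLQP21 and 3243 to 4180.1 CPM in Saline (1 of 12 above 0, median -0.22), led by Lyz2 at 3511 TPM. Endothelial markers were split 5 and 5 around 0. Of the Schwann cell and nerve markers 4 of 8 were tested, and their defining gene Sox10 had too few reads to be tested. No gene of these lists passed, and no listed marker was at 0 in all libraries.

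Across the 8 libraries, some members varied with levels of particular cell type markers. In all, 185 relations were computed (45 pairs of members and 140 of a member with a list level), 17 had an unadjusted exact permutation p under 0.05, and none passed after adjustment. Those described here were chosen after their values were seen. Prrx1 varied with the fibroblast markers, with Pearson r = 0.79 (exact permutation p = 0.0195, adjusted 0.327) and Spearman rho = 0.93 (p = 0.00223, adjusted 0.206). Without Saline 4 and TLQP21 1, the libraries farthest from the median fibroblast level, r was 0.84 (exact permutation p = 0.0389). Within the libraries with Y-linked transcripts and with Xist, only 4 of each, r was 0.78 and 0.92. Twist2 did so with r = 0.78 and rho = 0.81 (exact permutation p = 0.0242 and 0.0218, adjusted 0.344 and 0.397). Its r was 0.82 without the same libraries (exact permutation p = 0.0542), and 0.94 and 0.31 within the kinds. Twist1 did not, with r = -0.23 (exact permutation p = 0.584, adjusted 0.887) and rho = -0.29 (p = 0.501, adjusted 0.908).

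Snai1 varied with the acinar markers, genes of digestive enzymes of the normal pancreas (r = 0.83, rho = 0.86, exact permutation p = 0.0109 and 0.0107, adjusted 0.324 and 0.397). Without Saline 4 and TLQP21 2 its r was 0.81 (exact permutation p = 0.0194), and within the libraries with Y-linked transcripts and with Xist 0.95 and 0.98. Snai1 also varied with the macrophage markers (r = 0.77, rho = 0.81, exact permutation p = 0.0163 and 0.0218, adjusted 0.327 and 0.397). That r was 0.77 without TLQP21 3 and TLQP21 4 (exact permutation p = 0.0722), and 0.77 and 0.82 within the kinds. Acinar markers summed to 9366 to 26459.6 CPM in TLQP21 and 10004 to 48156 CPM in Saline, with 12 of 12 below 0. Their part in the Snai1 levels was not tested.

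Zeb1 ran opposite to the macrophage markers (r = -0.84, rho = -0.81, exact permutation p = 0.00813 and 0.0218, adjusted 0.324 and 0.397), with r = -0.58 without TLQP21 3 and TLQP21 4 (exact permutation p = 0.221). Within the libraries with Y-linked transcripts and with Xist, r was -0.83 and -0.82. It likewise ran opposite to the epithelial genes repressed in EMT (r = -0.83, rho = -0.67, exact permutation p = 0.0111 and 0.0831, adjusted 0.324 and 0.530), with r = -0.44 without Saline 2 and TLQP21 4 (exact permutation p = 0.399) and -0.66 and -0.50 within the kinds. Zeb1 and Snai1 were opposed (r = -0.81, rho = -0.74, exact permutation p = 0.0177 and 0.0458, adjusted 0.327 and 0.446), with r = -0.29 without Saline 3 and TLQP21 4 (exact permutation p = 0.585) and -0.99 and -0.88 within the kinds. Zeb2, though made by macrophages, gave r = 0.55 and rho = 0.57 with their markers (exact permutation p = 0.157 and 0.151, adjusted 0.677 and 0.682). Without TLQP21 3 and TLQP21 4 its r was 0.81 (exact permutation p = 0.0653), and within the libraries with Y-linked transcripts and with Xist 0.16 and 0.84. Vim and Cdh2 fell into separate ranges by kind of library, so no pooled correlation is given for them. Relations of both were among the 17 with an unadjusted p under 0.05. The smallest p was that of Vim with the T and NK cell markers. Its r was -0.74 and -0.66 within the libraries with Y-linked transcripts and with Xist. The ranges of Zeb1 overlapped between the kinds. Its difference between them was 0.36 (edgeR adjusted p = 0.245), and its pooled r were not adjusted for this.

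**Figure D5:**
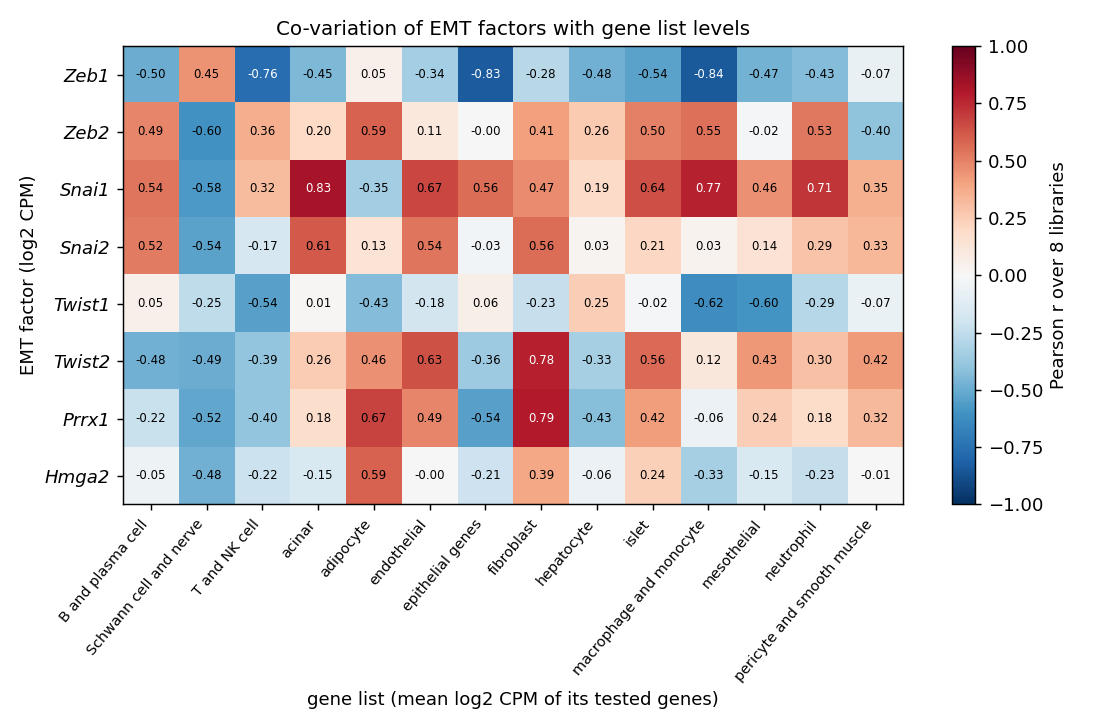
Pearson r over 8 libraries between the log2 CPM of 8 EMT factors (rows) and the mean log2 CPM of 14 gene lists (columns); red is positive and blue negative. Prrx1 and Twist2 are highest with fibroblast markers (0.79 and 0.78) and Snai1 with acinar markers (0.83); no relation passed after adjustment over 185.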

How the data were processed

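RNA sequencing of 8 tumour libraries (4 TLQP21, 4 Saline) was analysed. The deposited table holds raw integer counts of reads for each gene, and gene lengths, per the file headers. Per the labels' protocols, libraries were made with the NEBNext Ultra RNA kit and sequenced as 150 bp paired ends. The submitters' processing notes name the build GRCm38 (mm10) and 3 tools: DESeq2 1.32.0, featureCounts 1.5.0-p3 and HISAT2 2.0.5. Strand setting and annotation release are not given in the sources used here. All 10 members have the same position in GENCODE M21.

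From the counts, 18238 genes were kept by edgeR's default filter and tested (edgeR 4.0.16, R 4.3.3, TMM scaling, quasi-likelihood test without covariates, Benjamini-Hochberg over all genes, threshold 0.05). DESeq2 1.42.0 and limma 3.58.1 were other tools. TPM used the deposited gene lengths. Log2 CPM for list levels and correlations had a prior count of 2, and correlation p-values came from all permutations of the libraries. The gene-wise fit was checked on simulated counts. Members and lists were chosen with earlier results of these data known. Listed genes named are the 3 tested with the smallest unadjusted p, plus Cdh1 and Fn1; of cell type lists, the most abundant gene. Dub3 was not found under its name. Whether each library is a separate animal is not stated in the labels, and p-values therefore reflect only sample-to-sample spread, part of which may be technical. No pair of libraries was identical (lowest chi-square per degree of freedom 19.0).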

Additional observations from a re-analysis of the deposited data

How the results depend on the processing

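The count of 0 EMT factors called held under every alternative run for the treatment comparison: other scalings, filters, tools, protein-coding genes only, a threshold of 0.1, thinned libraries, the kind of library as a covariate, and each library left out. Over all genes, edgeR called 0, DESeq2 4 and voom 1. Nothing in the labels pairs equal replicate numbers, and deviations of same-numbered libraries correlated at 0.11, 0.19, 0.27 and -0.05. With the replicate block, 0 genes and 0 members were called. Zeb2, Snai1, Twist1 and Hmga2 kept their direction in all 20 alternatives but not their size: Zeb2 ran from -0.22 (voom) to -0.046 (without Saline 1), Snai1 from -0.50 (without TLQP21 1) to -0.060 (Saline 2 and TLQP21 4 left out together), Twist1 from 0.020 (without TLQP21 3) to 0.15 (without TLQP21 1), and Hmga2 from 0.026 (voom) to 0.34 (without Saline 1). Under voom Prrx1 was at 0.023 and Zeb1 at 0.10. With Saline 2 and TLQP21 4 left out together the direction turned for Zeb1 (-0.053), Prrx1 (-0.027), Vim (-0.10) and Cdh2 (-0.13). Under voom it turned for Snai2 (-0.061) and Cdh2 (-0.073). Twist2, at 0.00, turned to 0.018 with upper-quartile scaling, 0.036 with library totals, 0.00081 without a filter, 0.0050 among protein-coding genes, 0.20 under voom, 0.027 with the replicate block and 0.0082 with the kind of library as a covariate; leaving out single libraries gave -0.12 to 0.27. For Vim that range was -0.0073 to 0.26 and for Cdh2 -0.056 to 0.27. The cause was not tested. Between kinds of library, edgeR called 0 members, also with each library left out, while 0.373% of all genes passed with all 8 libraries. DESeq2 called 1 member, and its share over all genes is not given here. No relation passed in any of the 4 sets of correlations. Twist2 and Snai2 rest on the fewest reads, 31 to 57 and 71 to 111 a library; with libraries thinned to the smallest total they were at -0.0031 and 0.17.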

Other observations

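For each member, the other gene whose log2 CPM ran most nearly in parallel over the 8 libraries was taken from 18238 genes. Because it is the largest of so many values, no p is given. Zeb1 ran closest to Smarca1 (Pearson r = 0.99, Spearman rho = 0.98), and 671 genes had an r over 0.9 with it. Snai1 ran closest to 6430548M08Rik (r = 0.99, rho = 1), with 359 genes over 0.9. Prrx1 ran closest to Smarcb1 (r = 0.99, rho = 1), with 33 genes over 0.9, and Hmga2 to the annexin Anxa1 (r = 0.98, rho = 0.86), with 38. Zeb2 ran closest to Zcchc2 (r = 0.98, rho = 0.88), with 24 genes over 0.9, Twist2 to the KDEL receptor Kdelr3 (r = 0.96, rho = 0.98), with 12, Snai2 to Wfs1 (r = 0.95, rho = 0.90), with 8, and Twist1 to Fam149b (r = 0.96, rho = 0.90), with 6. For Vim and Cdh2 the rule named Ddx19a and Flvcr1, with no r given because these members fell into separate ranges by kind of library.

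Genes that overlap members on the opposite strand had few reads beside those of 3 other members. Gm10125 averaged 29.1 reads against 1335 for Zeb1, Zeb2os 27.0 against 2316 for Zeb2, and 1700006J14Rik 36.0 against 3994 for Hmga2.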
